A study of Homo sapiens with 6 samples.

Results

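The collagen genes were examined in RNA sequencing of T24 cells, a human bladder carcinoma line. All rows of the deposited table whose symbol begins with COL, a number, A and a further number were taken, which gave 46 of 20030 gene rows. Of these, 44 encode collagen alpha chains. The other 2 rows are COL4A2-AS2, an antisense RNA gene listed at 0 in every library, and COL4A3BP, the older symbol of CERT1, a ceramide transfer protein that is no collagen. T24 cells labelled sh-circRIMS1, a label that names a knockdown of circRIMS1, a circular RNA of the RIMS1 gene, were compared with T24 cells labelled NC, with 3 libraries in each group. Values per gene do not show the circular RNA, so the knockdown itself was not measured here. No drug, time point or further genotype is given in the labels. The headers carry an si prefix where the titles carry sh, so whether a small interfering or a short hairpin RNA was used is not settled here. T24 is a single established line, and nothing in the labels says that replicates were separate cultures, so the spread behind each p-value may be technical only.

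Collagens are secreted or membrane-bound proteins in which alpha chains wind around each other as trimers. Their classes differ in what the trimers build: fibrillar collagens form cross-banded fibrils, type IV forms the sheet of basement membranes, type VI forms beaded filaments, type VII forms the anchoring fibrils that tie a basement membrane to the tissue beneath it, fibril-associated collagens (FACITs) sit on fibril surfaces, transmembrane collagens span the cell membrane and multiplexins carry glycosaminoglycan chains in basement membranes. In the bladder wall, the urothelium rests on a basement membrane above a fibroblast-rich lamina propria, and fibroblasts are known as the main source of fibrillar collagen.

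T24 cells of either group had a narrow set of collagens. Values are FPKM, fragments per kilobase of transcript, scaled to the mapped fragments of the library, so genes are compared per length. The labels' protocols name RNase R treatment, and its effect on each gene and in each library was not tested. Differences in level between genes and between groups, and shares and ratios of chains, are read with that limit. Of the 44 chains, 15 reached a mean of 1 FPKM over the 6 libraries and were tested, and 29 did not. Of the 29, 22 stayed below 0.1 FPKM in every library, and 5 of these, COL6A5, COL9A1, COL10A1, COL20A1 and COL23A1, were listed at 0 throughout. COL5A2, COL6A1, COL6A2 and COL4A2 were the 4 chains with the highest mean, and together gave between 71.2% and 78.9% of the summed collagen FPKM of a library. The summed FPKM of all 44 chains was 608 ± 25.1 in sh-circRIMS1 and 445 ± 4.06 in NC (SD, n = 3 each). In bulk samples fewer cells of a type and less RNA per cell cannot be told apart.

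Tested with limma on log2(FPKM + 0.5) across 10408 genes, 9 of the 15 chains were higher in sh-circRIMS1, 2 were lower and 4 were not called at a Benjamini-Hochberg adjusted p of 0.05. The background over all tested genes was 25.0% higher and 12.7% lower, against 60.0% and 13.3% of the tested chains. The median log2 change (sh-circRIMS1 minus NC) was 0.76 over the 15 chains and 0.06 over all tested genes. The chains that rose were the 4 tested type IV chains, both tested type VI chains, COL7A1, COL9A3 and COL17A1. COL17A1 passed the filter only through its sh-circRIMS1 libraries, so its place among the 9 is not independent of its rise. The chains that fell were COL13A1 and COL12A1. With median-of-ratios scaling, 9 chains were higher and 3 lower, COL18A1 being the one added, while all genes shifted to 1795 higher and 2429 lower, against 2598 and 1322 as deposited. With quantile normalization 1588 genes were higher and 2085 lower.

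**Figure D1:**
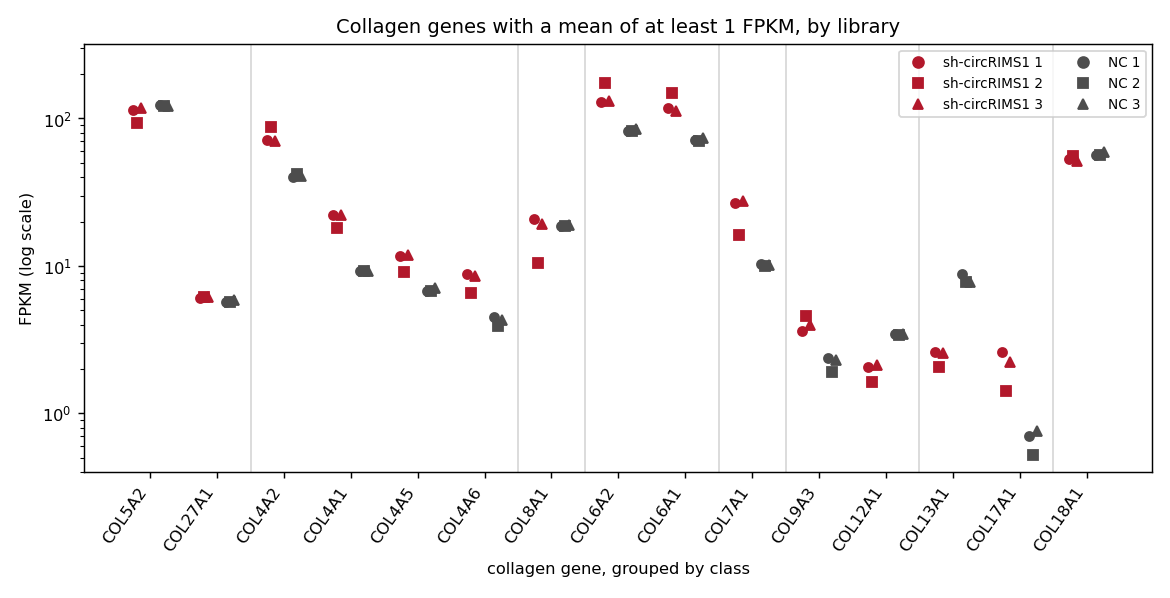
FPKM on a log axis of the 15 collagen genes with a mean of at least 1 FPKM, grouped by class, with 1 point per library (red, sh-circRIMS1 on the left of each gene; grey, NC). The type IV, type VI, COL7A1, COL9A3 and COL17A1 points of sh-circRIMS1 lie above those of NC, and those of COL13A1 and COL12A1 lie below.

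sh-circRIMS1 replicate 2 stood apart from the other libraries. Across tested genes, which are not independent replicates, its Pearson's r with sh-circRIMS1 replicates 1 and 3 was 0.974 and 0.975, against 0.997 between those replicates and between any pair of NC libraries. Without it, the same 9 chains were higher and 4 were lower, against a background of 36.8% higher and 23.9% lower. FPKM summed to between 268140 and 284680 per library. The 8 urothelial and epithelial markers summed to between 701 and 953 FPKM in sh-circRIMS1 and between 1237 and 1282 FPKM in NC, nearly all of it from the keratins KRT7, KRT8 and KRT18. Of these 8, KRT7 and KRT18 were called lower, KRT8 was not called, UPK1B was listed at 0 throughout and UPK2 reached at most 0.353 FPKM. EPCAM, below the filter, lay higher at 0.666, 0.610 and 0.919 FPKM in sh-circRIMS1, against 0.331, 0.590 and 0.176 FPKM in NC. KRT19 was at 0 in NC and reached 0.106 FPKM in sh-circRIMS1, and CDH1 was below 0.1 FPKM in every library. The 7 fibroblast markers summed to between 41.2 and 43.7 FPKM in sh-circRIMS1 and between 43.6 and 44.3 FPKM in NC, nearly all of it from FBLN1. DCN was at 0 in every library and LUM, PDGFRA, THY1 and FAP were below 0.1 FPKM. The 5 leukocyte markers summed to between 17.0 and 23.6 FPKM in sh-circRIMS1 and between 4.97 and 6.05 FPKM in NC, mostly from CD68, which was called higher, with CD3E at 0 and PTPRC below 0.05 FPKM. The 5 endothelial markers summed to between 15.4 and 20.6 FPKM in sh-circRIMS1 and between 15.3 and 16.6 FPKM in NC, mostly from CDH5, which was not called, while TIE1, which passed the filter through its sh-circRIMS1 libraries, was called higher. The part of the markers that moved in the collagen results was not tested.

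Sequence windows are shown for some of the genes whose starts are paired or whose class moved both ways. These are start regions of the tested paired type IV genes and upstream windows of both called transmembrane collagens, which moved in opposite directions. The COL4A3 and COL4A4 starts, which are also paired, and the FACIT genes, which also moved both ways, are not shown. Sequences are from RefSeq on GRCh38.p14, 5′ to 3′ on the strand of the gene named, and the build behind the deposited values is not stated here. COL4A1 and COL4A2 start on opposite strands with 126 bases between their starts, at chr13:110307158-110307283, shown on the plus strand, that of COL4A2. COL4A5 and COL4A6 are likewise head to head on the X chromosome with 379 bases between their nearest starts, and the 250 bases before COL4A5 are shown, at chrX:108439588-108439837 on the plus strand. For COL17A1 the 250 bases are at chr10:104085881-104086130 on the minus strand, and for COL13A1 at chr10:69801656-69801905 on the plus strand. Capitals mark matches, on either strand, to TATAAA, the element that positions the start of many genes, to CCAAT, the box bound by NF-Y, to GGGCGG, the GC box of SP factors, to GAAANNGAA, a core of the interferon-stimulated response element, or to GGAATG, the motif of TEAD factors, none of which overlapped in these windows.
COL4A1-COL4A2 gap: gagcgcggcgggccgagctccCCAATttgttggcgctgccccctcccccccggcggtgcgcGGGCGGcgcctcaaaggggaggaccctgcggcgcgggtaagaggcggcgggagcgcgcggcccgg
COL4A5 upstream: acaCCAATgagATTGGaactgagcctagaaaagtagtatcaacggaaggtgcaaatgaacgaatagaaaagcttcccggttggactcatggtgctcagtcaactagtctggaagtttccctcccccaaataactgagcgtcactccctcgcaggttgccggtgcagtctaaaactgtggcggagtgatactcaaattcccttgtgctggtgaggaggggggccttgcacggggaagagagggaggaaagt
COL17A1 upstream: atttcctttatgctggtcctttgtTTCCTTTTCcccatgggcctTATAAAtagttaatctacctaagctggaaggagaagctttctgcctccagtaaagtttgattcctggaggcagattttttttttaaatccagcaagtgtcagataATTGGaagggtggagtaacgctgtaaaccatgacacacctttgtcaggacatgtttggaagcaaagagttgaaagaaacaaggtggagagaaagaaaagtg
COL13A1 upstream: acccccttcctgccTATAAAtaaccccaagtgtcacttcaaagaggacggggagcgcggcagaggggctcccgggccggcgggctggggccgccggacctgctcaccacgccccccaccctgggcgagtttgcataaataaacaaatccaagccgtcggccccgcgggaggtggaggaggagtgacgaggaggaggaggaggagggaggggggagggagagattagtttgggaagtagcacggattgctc

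The gap between COL4A1 and COL4A2 held 1 CCAAT box and 1 GC box and was 80.2% G and C, against a median of 58.0% over 35116 promoter windows of 250 bases. The window of COL4A5 held 2 CCAAT boxes. COL17A1 held matches to TATAAA, to CCAAT and to the interferon-stimulated response element core, and COL13A1 held a match to TATAAA. Both TATAAA matches lay toward the end of the window far from the start, and the search took no account of position. Of all 35116 windows, 32.0% held a CCAAT box, 42.6% a GC box, 10.7% a TATAAA match, 6.88% the response element core and 11.9% the TEAD motif. Of the 44 windows that matched 32 of the alpha-chain genes, 27.3%, 54.5%, 18.2%, 2.27% and 6.82% held these same motifs in that order. A match is a description of letters and not a site.

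Type IV collagen, the sheet-forming collagen of basement membranes, rose in all 4 of its tested chains. COL4A1, the chain that pairs with COL4A2 in most basement membranes, had 22.0, 18.1 and 22.0 FPKM in the sh-circRIMS1 libraries, against 9.19, 9.29 and 9.29 FPKM in the NC libraries. All sh-circRIMS1 libraries lay above all NC libraries, and the log2 change was 1.12 ± 0.09 (SE; 95% interval 0.91 to 1.32; limma adjusted p = 0.000275). COL4A2, which runs away from COL4A1 across the gap shown above, had 71.1, 86.9 and 70.3 FPKM in sh-circRIMS1, against 39.8, 41.9 and 40.5 FPKM in NC. The groups did not overlap here either, and the log2 change was 0.89 ± 0.09 (SE; limma adjusted p = 0.000695). Overlap of the groups is described gene by gene, and its share over all tested genes is not given here.

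The X-linked chains COL4A5 and COL4A6, which form a trimer of their own in smooth muscle and some epithelial basement membranes, rose as well. COL4A5 had 11.6, 9.04 and 11.9 FPKM in sh-circRIMS1, against 6.80, 6.74 and 7.06 FPKM in NC, a log2 change of 0.61 ± 0.11 (SE; limma adjusted p = 0.00537). COL4A6 had 8.77, 6.60 and 8.55 FPKM in sh-circRIMS1, against 4.52, 3.93 and 4.27 FPKM in NC, a log2 change of 0.83 ± 0.12 (SE; limma adjusted p = 0.00233). Replicate 2 was the lowest sh-circRIMS1 library for COL4A1, COL4A5 and COL4A6 and the highest for COL4A2. The remaining pair, COL4A3 and COL4A4, which build the basement membrane of the kidney glomerulus with COL4A5, stayed low. COL4A4 had 0.0888, 0.0733 and 0.139 FPKM in sh-circRIMS1, against 0.0342, 0.0470 and 0.0169 FPKM in NC, and COL4A3 was below 0.04 FPKM in every library. Type IV chains made up 19.0% ± 0.0755 of the summed collagen FPKM in sh-circRIMS1 and 13.7% ± 0.245 in NC (SD, n = 3 each).

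**Figure D2:**
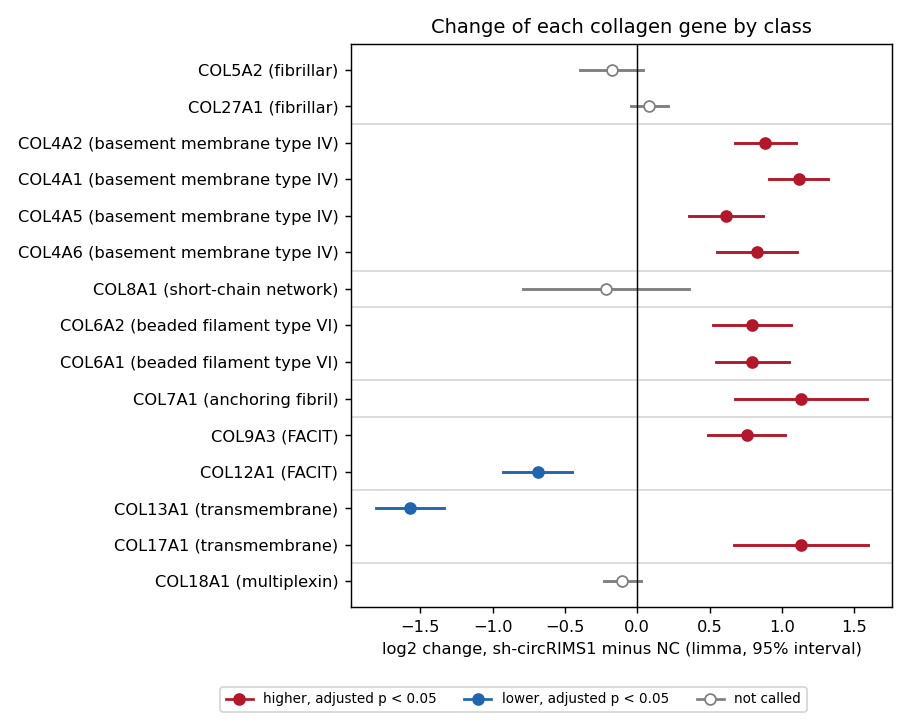
Log2 change (sh-circRIMS1 minus NC, on log2(FPKM + 0.5)) of the 15 tested collagen genes with its 95% limma interval, in order of class. All 4 type IV chains and both type VI chains lie right of 0, COL12A1 and COL13A1 lie left of it, and open points were not called.

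Type VI collagen, the beaded-filament collagen found beside basement membranes, had some of the most abundant chains and rose for both of its tested members. COL6A1 had 118, 148 and 112 FPKM in sh-circRIMS1, against 71.9, 70.6 and 73.2 FPKM in NC (log2 change 0.80 ± 0.10, SE; limma adjusted p = 0.00188). COL6A2, its neighbour on chromosome 21, had 130, 173 and 131 FPKM in sh-circRIMS1, against 81.6, 81.8 and 84.7 FPKM in NC (log2 change 0.79 ± 0.11, SE; limma adjusted p = 0.00249). Every sh-circRIMS1 library lay above every NC library for both genes, and replicate 2 was the highest. The share of all tested genes with such a separation is not given here. COL6A3, the large chain that completes the usual type VI trimer, was near 0 at 0.0378, 0.0455 and 0.0132 FPKM in sh-circRIMS1 and at 0.00718, 0.00308 and 0.0178 FPKM in NC, and its groups overlapped. COL6A6, an alternative to it, reached at most 0.00246 FPKM.

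Chains that assemble together were compared within each library as a ratio of FPKM. The ratio of COL6A1 to COL6A2 was 0.908, 0.857 and 0.855 in sh-circRIMS1, against 0.881, 0.863 and 0.865 in NC, and the groups overlapped (exact two-sided permutation p = 1). The ratio of COL4A1 to COL4A2 was 0.310, 0.209 and 0.313 in sh-circRIMS1, against 0.231, 0.222 and 0.229 in NC (exact permutation p = 0.4). Replicates 1 and 3 lay above all NC libraries and replicate 2 below them. The ratio of COL4A5 to COL4A6 was 1.32, 1.37 and 1.39 in sh-circRIMS1, against 1.50, 1.72 and 1.65 in NC, with no overlap. Its log2 difference was -0.22 (exact permutation p = 0.1, the smallest that 3 against 3 libraries can give). Adjusted over these 3 pairs, the p-values were 1, 0.6 and 0.3 in the order given.

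**Figure D3:**
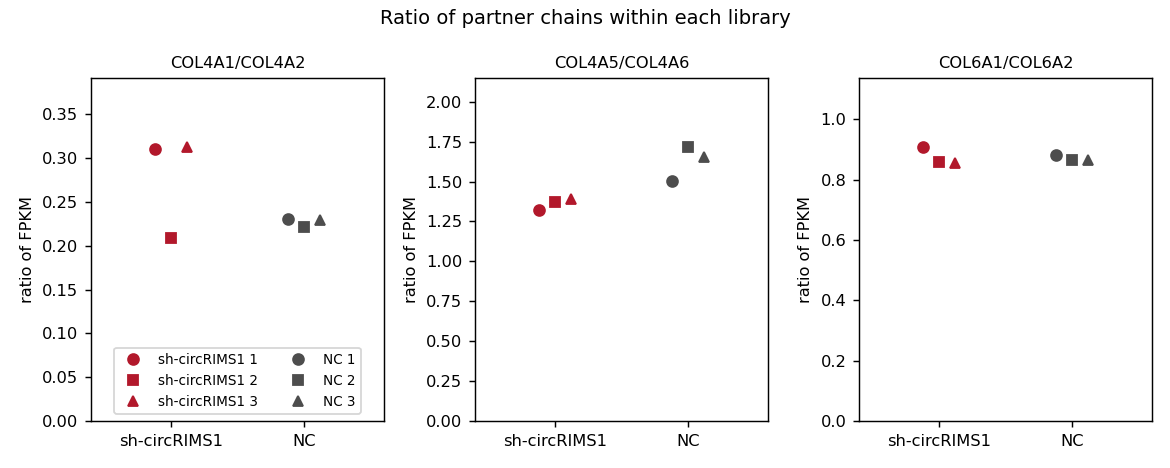
Ratio of the FPKM of partner chains in each library, from 0, for the 3 pairs with both chains at a mean of at least 1 FPKM (red, sh-circRIMS1; grey, NC). COL6A1 to COL6A2 stays between 0.855 and 0.908 in all 6 libraries, and COL4A5 to COL4A6 is lower in each sh-circRIMS1 library than in any NC library.

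COL7A1 and COL17A1 both belong to the structures that anchor epithelia to their basement membrane, and both rose. COL7A1, the single chain of anchoring fibrils, had 26.8, 16.2 and 27.6 FPKM in sh-circRIMS1, against 10.3, 9.96 and 10.2 FPKM in NC. The log2 change was 1.13 ± 0.19 (SE; limma adjusted p = 0.00496), and 1.38 without replicate 2, the lowest of the sh-circRIMS1 libraries. COL17A1, a transmembrane collagen of hemidesmosomes, had 2.61, 1.41 and 2.24 FPKM in sh-circRIMS1, against 0.704, 0.522 and 0.760 FPKM in NC. Its log2 change was 1.13 ± 0.19 (SE; limma adjusted p = 0.00509), and its groups did not overlap. The mean of COL17A1 passed the filter of 1 FPKM through its sh-circRIMS1 libraries, since all NC libraries lay below 1.

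COL13A1, a transmembrane collagen of focal adhesions and the neuromuscular junction, fell most among the tested chains. It had 2.61, 2.05 and 2.57 FPKM in sh-circRIMS1, against 8.80, 7.81 and 7.83 FPKM in NC. Its level fell to 29.6% of that in NC, and the log2 change was -1.57 ± 0.10 (SE; 95% interval -1.81 to -1.34; limma adjusted p = 0.000157). The tested transmembrane collagens moved in both directions, COL13A1 down and COL17A1 up. Of the other 2, COL23A1 was listed at 0 in every library, and COL25A1 in all but sh-circRIMS1 replicate 2, where it was at 0.0101 FPKM.

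FACIT collagens were split too. COL12A1, a FACIT that binds to type I fibrils, had 2.07, 1.63 and 2.14 FPKM in sh-circRIMS1, against 3.44, 3.38 and 3.48 FPKM in NC (log2 change -0.69 ± 0.10, SE; limma adjusted p = 0.00264). COL9A3, a chain of the type IX collagen known from cartilage, had 3.61, 4.59 and 3.97 FPKM in sh-circRIMS1, against 2.36, 1.91 and 2.31 FPKM in NC (log2 change 0.76 ± 0.11, SE; limma adjusted p = 0.00283). Neither gene overlapped between the groups, again with no share over all tested genes beside it. The partners of COL9A3 were scarce: COL9A1 was at 0 throughout, and COL9A2 had 0.252, 0.584 and 0.0868 FPKM in sh-circRIMS1, against 0.0212, 0.0365 and 0.0427 FPKM in NC. Among chondrocyte markers, SOX9 averaged 23.5 FPKM in sh-circRIMS1 and 12.9 FPKM in NC and was called higher, as was MATN3, while ACAN was at 0 and COMP reached 0.0182 FPKM in a single library. The 4 markers summed to between 18.1 and 30.3 FPKM in sh-circRIMS1 and between 13.4 and 15.0 FPKM in NC, and their part in the COL9A3 result was not tested.

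Neither of the tested fibrillar chains, COL5A2 and COL27A1, changed past the threshold. COL5A2, the most abundant collagen chain of the NC libraries, had 114, 93.8 and 119 FPKM in sh-circRIMS1, against 124, 122 and 122 FPKM in NC (log2 change -0.18, 95% interval -0.39 to 0.04; limma adjusted p = 0.167). Its groups did not overlap although the test was not passed, and without sh-circRIMS1 replicate 2 it was called lower at a log2 change of -0.07 (limma adjusted p = 0.0418). COL27A1, a fibrillar chain known from cartilage, had 6.06, 6.18 and 6.16 FPKM in sh-circRIMS1, against 5.69, 5.72 and 5.85 FPKM in NC (log2 change 0.08; limma adjusted p = 0.260), a difference whose sign turned with the scaling.

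The chains that join COL5A2 in type V trimers, and its close neighbour gene, were almost absent. COL5A1 was at most 0.0449 FPKM and COL5A3 at most 0.0129 FPKM, and COL3A1, which lies next to COL5A2 on chromosome 2, was at most 0.0217 FPKM. COL1A1, the main chain of type I collagen in connective tissue, had 0.646, 0.805 and 0.719 FPKM in sh-circRIMS1, against 0.135, 0.154 and 0.108 FPKM in NC. These values lay below the filter, and COL1A1 was called higher when the filter was dropped, at a log2 change of 0.95 (limma adjusted p = 0.000744). COL1A2, its partner, had 0.00885, 0.0271 and 0.0427 FPKM in sh-circRIMS1 and was listed at 0 in every NC library. COL11A2, a minor fibrillar chain, stood at 0.131 FPKM in sh-circRIMS1 and 0.129 FPKM in NC on average, with overlapping groups.

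COL8A1 and COL18A1 completed the tested chains. COL8A1, a short-chain network collagen of vessel walls and the cornea, had 20.8, 10.4 and 19.4 FPKM in sh-circRIMS1, against 18.7, 18.8 and 19.1 FPKM in NC. The groups overlapped (limma adjusted p = 0.505), and the low value of replicate 2 set the sign of the log2 change, which was -0.22 with it and 0.09 without it. COL18A1, a multiplexin whose C-terminal part is endostatin, had 52.8, 55.7 and 51.5 FPKM in sh-circRIMS1, against 56.1, 56.9 and 59.0 FPKM in NC. The sh-circRIMS1 values were all lower, with a log2 change of -0.10 (95% interval -0.23 to 0.03; limma adjusted p = 0.172), and the gene was called lower without replicate 2 at -0.14 (limma adjusted p = 0.0062). COL4A3BP, the ceramide transfer protein, was at 4.71 FPKM in sh-circRIMS1 and 4.50 FPKM in NC on average (limma adjusted p = 0.591).

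Of the 29 chains below the filter, 24 had a value above 0 in some library. In 8 of these 24, or 33.3%, every sh-circRIMS1 library lay above every NC library, and in 0 of them below, against 29.0% and 2.96% of all 5809 genes in that range. The 8 were COL1A1, COL1A2, COL4A3, COL4A4, COL8A2, COL9A2, COL16A1 and COL26A1. The share that lay higher is near that of all low genes. COL8A2, the partner of COL8A1, had 0.407, 0.602 and 0.319 FPKM in sh-circRIMS1, against 0.168, 0.256 and 0.169 FPKM in NC. COL16A1, a FACIT, had 0.164, 0.169 and 0.138 FPKM in sh-circRIMS1, against 0.0530, 0.0628 and 0.0266 FPKM in NC. COL26A1 had 0.0133, 0.166 and 0.0255 FPKM in sh-circRIMS1 and was listed at 0 in NC, so most of its signal came from replicate 2.

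With no filter, 39 chains entered the fit, and 13 were called higher and 2 lower, against a background of 20.8% and 7.81% of 16217 genes. The 4 added were COL1A1, COL4A4, COL8A2 and COL16A1, and their log2 changes on this scale were 0.95, 0.17, 0.43 and 0.26, which understate the change of such low genes. The remaining low chains reached less than 0.1 FPKM in every library, apart from COL11A2, COL9A2 and COL26A1. COL2A1, COL11A1, COL14A1, COL15A1, COL19A1, COL21A1, COL22A1, COL24A1 and COL28A1 were among them.

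**Figure D4:**
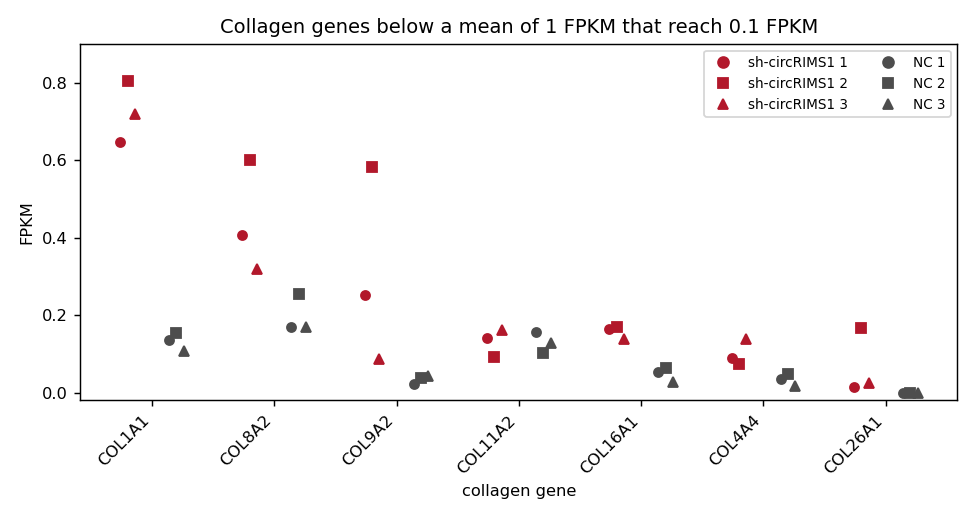
FPKM of the 7 collagen genes below a mean of 1 FPKM that reached 0.1 FPKM in some library, with 1 point per library (red, sh-circRIMS1 on the left; grey, NC). COL11A2 overlaps between the groups, and the other 6 have every sh-circRIMS1 library above every NC library. COL4A4, COL9A2, COL16A1 and COL26A1 reached 0.1 FPKM only in sh-circRIMS1 libraries, so their place here is not independent of their rise. Over all 24 low chains above 0 the share that lay higher was 33.3%, near the 29.0% of all low genes.

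Genes that modify, fold, export, trim and cross-link procollagen were read from a list of 37, of which 25 were tested, 12 rose and 2 fell. Their median log2 change was 0.29, against 0.06 over all tested genes. The 12 are 48.0% of those tested, beside the background of 25.0% given above. PCOLCE, among the 12, passed the filter only through its sh-circRIMS1 libraries. Prolyl hydroxylation stabilises the collagen trimer. Of 9 tested genes of that step and its partners 5, or 55.6%, rose and 1, or 11.1%, fell. P4HA2, a catalytic subunit of prolyl 4-hydroxylase, had 5.93, 9.59 and 6.57 FPKM in sh-circRIMS1, against 2.13, 2.09 and 2.21 FPKM in NC (log2 change 1.54 ± 0.16, SE; limma adjusted p = 0.000827). Its paralog P4HA1 averaged 17.2 FPKM in sh-circRIMS1 and 12.3 FPKM in NC (limma adjusted p = 0.00386). The shared beta subunit P4HB, which is also protein disulfide isomerase, was at 128 FPKM in sh-circRIMS1 and 142 FPKM in NC and was not called (limma adjusted p = 0.106), but its groups did not overlap and it was called lower without sh-circRIMS1 replicate 2 (limma adjusted p = 0.0112), with median-of-ratios scaling and with array weights.

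The prolyl 3-hydroxylase family was split. P3H2, which is known to act on type IV collagen, fell and had 3.01, 3.51 and 3.52 FPKM in sh-circRIMS1, against 7.23, 6.37 and 6.41 FPKM in NC (log2 change -0.90 ± 0.09, SE; limma adjusted p = 0.000566). P3H3 and P3H4 rose by 0.36 and 0.41 on the log2 scale. P3H1 rose by 0.20 (limma adjusted p = 0.0407), a call lost under 8 of 15 alternatives, among them leaving out any single NC library. PLOD1, a lysyl hydroxylase, had 39.5, 37.2 and 42.0 FPKM in sh-circRIMS1, against 27.0, 27.4 and 26.2 FPKM in NC (log2 change 0.55; limma adjusted p = 0.00105), and was the single called gene of 4 tested in its step, the same 25.0% as over all tested genes. PLOD2, its paralog, averaged 41.8 FPKM in sh-circRIMS1 and 53.1 FPKM in NC and was not called (limma adjusted p = 0.0738). It was called lower without sh-circRIMS1 replicate 2 (limma adjusted p = 8.62e-06), with median-of-ratios scaling and with array weights. Other uncalled genes of the processing list went the other way. PPIB, PLOD3 and SEC23A were called higher without sh-circRIMS1 replicate 2 (limma adjusted p = 1.02e-05, 0.00849 and 0.0208) and with array weights.

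Of 8 tested chaperones and export genes 4 rose, against 25.0% of all tested genes, and the calls of TMEM38B and MIA3 among them depended on the setting. FKBP10, a collagen chaperone with prolyl isomerase domains, had 38.9, 44.9 and 39.1 FPKM in sh-circRIMS1, against 23.7, 24.0 and 22.9 FPKM in NC (log2 change 0.78 ± 0.07, SE; limma adjusted p = 0.000472). SEC24D, a coat subunit of the vesicles that carry procollagen, rose by 0.62 on the log2 scale. TMEM38B and MIA3 rose by 0.35 and 0.40, the TMEM38B call being lost under quantile normalization, without any single NC library and without sh-circRIMS1 replicate 3, and the MIA3 call under 10 alternatives. SERPINH1, the collagen chaperone HSP47, was at 75.0 FPKM in sh-circRIMS1 and 79.2 FPKM in NC (limma adjusted p = 0.552).

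Outside the cell, BMP1, the proteinase that removes C-propeptides, averaged 3.44 FPKM in sh-circRIMS1 and 2.44 FPKM in NC (limma adjusted p = 0.00715; 0.0957 under quantile normalization). PCOLCE, its enhancer, averaged 1.88 FPKM in sh-circRIMS1 and 0.925 FPKM in NC (limma adjusted p = 0.00192), and its mean passed the filter of 1 FPKM through its sh-circRIMS1 libraries. LOXL2, a lysyl oxidase that cross-links type IV collagen, had 26.7, 43.1 and 25.9 FPKM in sh-circRIMS1, against 48.0, 50.8 and 48.3 FPKM in NC. Its log2 change was -0.65 ± 0.19 (SE; limma adjusted p = 0.0329), with replicate 2 closest to NC. Leaving out that library gave -0.89, and the call was lost without any 1 of the other libraries, with no filter and after rescaling to TPM. LOX itself was not called (limma adjusted p = 0.162).

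Of 10 collagen receptors 4 were tested, of which 3 rose and 1 fell, against a background of 25.0% higher and 12.7% lower over all tested genes. ITGA2, the alpha subunit of a collagen-binding integrin, had 28.8, 26.5 and 30.3 FPKM in sh-circRIMS1, against 12.6, 12.5 and 12.1 FPKM in NC (log2 change 1.17 ± 0.07, SE; limma adjusted p = 0.000109). DDR1, a receptor tyrosine kinase activated by collagen, had 10.0, 9.82 and 9.85 FPKM in sh-circRIMS1, against 5.64, 5.70 and 5.55 FPKM in NC (log2 change 0.76; limma adjusted p = 0.000203). MRC2, an endocytic receptor that takes up collagen, had 22.0, 31.3 and 22.5 FPKM in sh-circRIMS1, against 9.92, 11.4 and 10.9 FPKM in NC (log2 change 1.18; limma adjusted p = 0.00126). None of these 3 overlapped between groups, but the share of all tested genes without overlap is not given here. ITGB1, the common beta subunit, fell by 0.26 on the log2 scale (limma adjusted p = 0.0123), a call lost under quantile normalization and without NC replicate 1, 2 or 3.

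**Figure D5:**
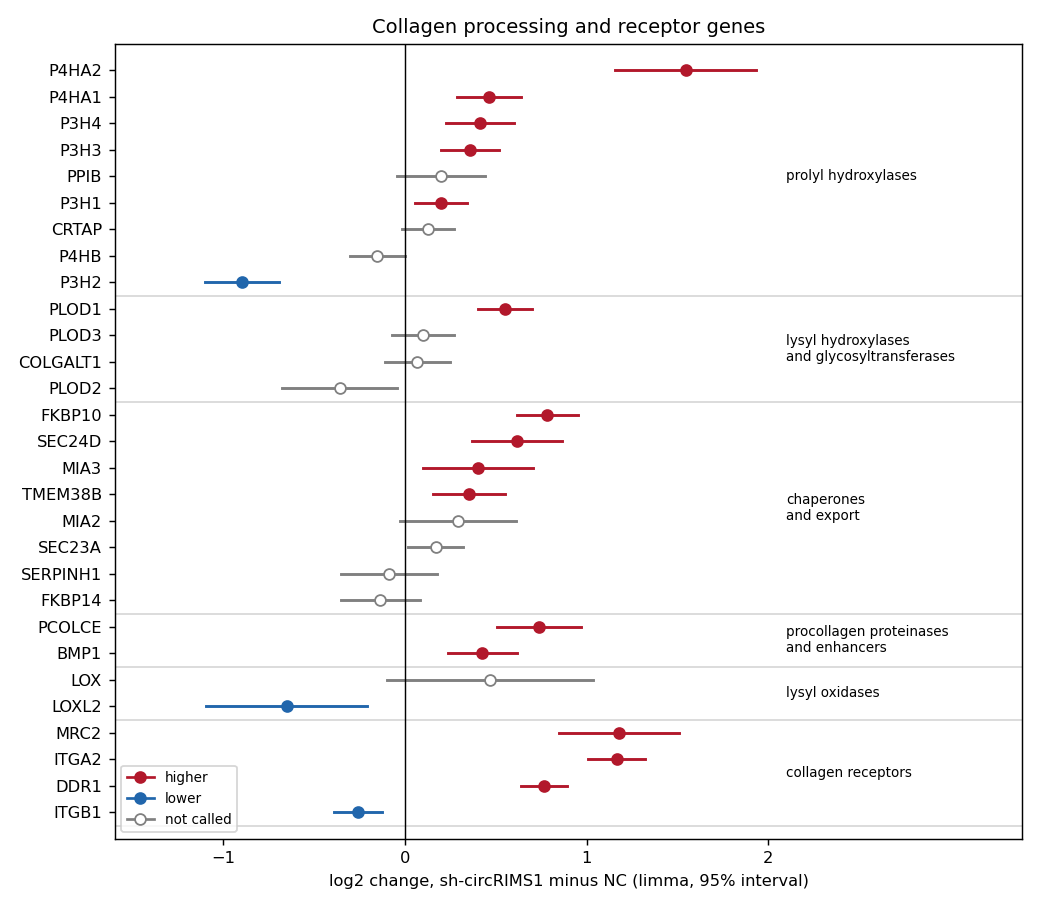
Log2 change (sh-circRIMS1 minus NC, on log2(FPKM + 0.5)) with its 95% limma interval for the tested genes of collagen modification, folding, export, trimming, cross-linking and reception. P4HA2, MRC2 and ITGA2 lie furthest right at 1.54, 1.18 and 1.17, P3H2 and LOXL2 lie furthest left, and open points were not called.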

How the data were processed

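RNA sequencing of 6 T24 libraries was used. Per the labels' protocols, strand-specific libraries were made after removal of ribosomal RNA and RNase R treatment. Linear mRNAs were abundant all the same. The authors deposited 1 table of FPKM. The tools named, per the submitters' processing notes, are StringTie, Cufflinks, HTSeq, HISAT2, Trimmomatic and DESeq. Roles, versions, settings and genome build: not given in the sources used here. Absolute depth is unknown. Values per gene do not separate alternative starts or overlapping antisense RNAs.

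The filter kept genes averaging 1 FPKM or more. The test was limma 3.58.1 (R 4.3.3), applied to log2(FPKM + 0.5), two-sided, with an intensity trend and Benjamini-Hochberg adjustment over all tested genes at 0.05. This scale understates the change of low genes. The test was checked on simulated data. Ratios had an exact permutation test with scipy 1.17.1. All chains that passed the filter are named, with up to 3 low chains of each class, and up to 4 called genes of each other list by p, or 2 by level. Other genes were named after their values were seen. Members and lists were chosen with earlier results of these data known. Alternatives are listed in the closing part.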

Additional observations from a re-analysis of the deposited data

How the results depend on the processing

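The 11 called chains kept direction and call under all 162 values computed over 15 alternatives, which were pseudocounts of 0.1 and 1, no filter or a mean of at least 5 FPKM, 3 other scalings, array weights, a replicate block and leaving out each library. Chains called lower numbered 1 of 12 tested at a mean of at least 5 FPKM, beside 1123 of all 7004 tested genes. COL12A1 was removed by that filter. Between 2 and 4 were lower when a library was left out. In the processing list 7 of 18 tested genes were higher at a mean of at least 5 FPKM, beside 1469 of all 7004 tested genes. That filter removed P4HA2, TMEM38B, BMP1 and PCOLCE, and MIA3 lost its call. Members of that list called lower numbered 1 of 37 with no filter, beside 1266 of all 16217 tested genes. After rescaling to TPM 1 of 25 was lower, beside 1199 of all 10408 genes. With median-of-ratios scaling or array weights 4 of 25 were lower, beside 2429 and 2424 genes in that order. Between 1 and 4 were lower when a library was left out. Of the 9 receptors tested with no filter 5 were higher, beside 3375 of all 16217 tested genes. Receptors lower numbered 0 of 4 under quantile normalization, beside 2085 of all 10408 tested genes, and between 0 and 1 when a library was left out.

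The FACIT median turned to -0.074 with median-of-ratios scaling and -0.21 under quantile normalization, and ran between -0.011 and 0.057 when a library was left out, turning without NC replicate 2. COL27A1 turned to -0.033 and -0.053, and COL4A3BP to -0.058 and -0.12, under those scalings in that order. COL8A1 turned to 0.053 with array weights, and ran between -0.40 and 0.090 when a library was left out, turning without sh-circRIMS1 replicate 2. Median-of-ratios scaling moved the median of all tested genes from 0.063 to -0.055. SERPINH1 turned to 0.031 with array weights, and ran between -0.16 and 0.044 when a library was left out, turning without sh-circRIMS1 replicate 2. The cause of these turns was not tested. Same-numbered libraries did not deviate together (r of -0.0258, -0.00335 and -0.0402), so the values showed no pairing by number. Whether libraries were paired by design cannot be told from this. With a replicate block 9 chains were higher and 2 lower, and 2142 genes were higher and 996 lower. Absolute depth is unknown, so no limit for a value of 0 can be given.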
